A study of Mus musculus with 8 samples.

Results

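The stefin A genes of the mouse lie side by side on chromosome 16, and 8 of them, Stfa1, Stfa2, Stfa2l1, Stfa3, BC100530, BC117090, Gm5483 and Gm5416, were followed in mouse skin out of 22740 protein-coding genes listed. They were taken by gene name and chosen by their levels in these same libraries, with earlier results known, so their levels and changes are given as a description without a p-value, and counts of members past a threshold stand only beside the share of all genes past it. RNA was sequenced from whole skin of female BALB/c mice aged 6 to 8 weeks, as 8 libraries from 8 mice, of which 2 belonged to each of 4 groups. Baseline CTL mice (vehicle) drank water and had no allergen, and baseline butyrate mice (SCFA) drank 400 mM sodium butyrate and had no allergen. Lesional CTL mice, labelled atopic dermatitis, drank water and received 4 epicutaneous exposures to 15 µg of house dust mite (HDM) over 2 weeks. Lesional butyrate mice received the same HDM and drank 400 mM sodium butyrate from 2 weeks before it and throughout. All of these mice were on a low-fibre diet. The labels of baseline mice begin with other numbers than those of lesional mice, so the effect of HDM and that of the set of mice cannot be told apart. With 2 mice per group, the smallest p that an exact two-sided permutation test can give for a single value is 0.333.

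Stefins are the cystatins that lack a signal peptide and stay inside the cell, where they block papain-like cysteine proteases such as cathepsins B, H, L and S by plugging the active site. In skin, stefin A (cystatin A) is a protein of differentiating keratinocytes that is built into the cornified envelope, and in mice several stefin A genes are also known from neutrophils and other myeloid cells. Humans have a single stefin A gene, whereas the mouse locus has been copied many times, and the copies remain close in sequence.

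The cluster spanned chr16:36156811-36455392 of GRCm38 (298582 bases, GENCODE vM21), and 10 genes of the count table lay inside it, the 8 members among them. The other genes inside it were not followed, and their counts are not part of the sum. On the plus strand were Stfa2l1 (ENSMUSG00000059657, from 36156811 to 36161953), Gm5483 (ENSMUSG00000079597, from 36184212 to 36188111), Gm5416 (ENSMUSG00000094733, from 36210403 to 36217788) and Stfa1 (ENSMUSG00000071562, from 36276951 to 36285373). On the minus strand were BC117090 (ENSMUSG00000079594, from 36321665 to 36334332), BC100530 (ENSMUSG00000071561, from 36359382 to 36367748), Stfa2 (ENSMUSG00000022902, from 36403992 to 36408457) and Stfa3 (ENSMUSG00000054905, from 36450537 to 36455392). Each is annotated as protein-coding, and its first-numbered protein-coding transcript has 3 exons. RefSeq gives BC100530 as Cstdc5, BC117090 as Cstdc6, Gm5483 as Cstdc4 and Gm5416 as Csta3.

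The coding sequences show how close the copies are, and therefore how reads could be divided among them. A stretch of 60 bases is shown, from base 187 to base 246 of the BC100530 coding sequence and the aligned bases of the others, chosen as the stretch without gaps in which the fewest positions were shared. Capitals mark a base that differs from the commonest base at that position. Where a and G were equally common, a was taken as the commonest.
BC100530: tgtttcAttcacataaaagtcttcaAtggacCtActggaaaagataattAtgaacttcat
Stfa1: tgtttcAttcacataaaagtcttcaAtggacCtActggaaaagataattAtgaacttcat
BC117090: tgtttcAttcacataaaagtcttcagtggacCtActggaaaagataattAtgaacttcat
Gm5416: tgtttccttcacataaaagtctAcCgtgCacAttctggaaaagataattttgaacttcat
Stfa3: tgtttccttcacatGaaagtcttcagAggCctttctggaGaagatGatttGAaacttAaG
Gm5483: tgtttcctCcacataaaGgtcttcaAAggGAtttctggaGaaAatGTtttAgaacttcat
Stfa2: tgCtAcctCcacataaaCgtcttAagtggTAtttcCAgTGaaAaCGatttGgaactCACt
Stfa2l1: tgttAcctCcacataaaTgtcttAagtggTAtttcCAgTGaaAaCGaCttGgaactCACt
Of the 60 positions, 28 were the same in all 8 genes. BC100530 and Stfa1 did not differ at any position of this stretch, BC117090 differed from each of them at 1 position, and Stfa2 and Stfa2l1 differed from each other at 3 positions. Over whole coding sequences, 28 pairs of members shared between 77.7% and 97.9% of aligned bases (median 82.0%). The closest pairs were Stfa1 with BC100530 (97.9%), Stfa2 with Stfa2l1 (96.4%) and BC100530 with BC117090 (96.2%).

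How far a short read can be placed in 1 copy was measured on the transcripts. Of all windows of 50 bases in a transcript, the share found in no other gene was 64.4% for Gm5483, 66.3% for BC117090, 66.5% for BC100530, 74.6% for Stfa1, 75.4% for Stfa2l1 and 84.1% for Stfa2. For Stfa3 and Gm5416 every window of 50 bases was found in that gene alone. With windows of 100 bases the shares lay between 86.5% and 100%. Stfa3 and Gm5416 therefore had the least ambiguous counts, whereas counts of the other 6 genes may hold or miss reads of a copy. How the counting treated reads that match several copies is not given in the sources used here. Values of the 8 genes are also given as a sum, which does not depend on how counted reads were divided within the cluster, although reads left out of the counting are missing from it too.

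The starts of these genes were compared because the members were high in the same libraries. RefSeq promoter sequences (GRCm38.p6, from 250 bases before to 50 bases after the start) matched 7 of the 8 members, and BC117090 had no entry. In 4 of them, the part from 12 bases before the first shared run to the end of the second is shown, with both shared runs in capitals. Positions are BC100530 chr16:36367570-36367659 on the minus strand, Stfa3 chr16:36455414-36455504 on the minus strand, Stfa2 chr16:36408383-36408474 on the minus strand and Gm5416 chr16:36210246-36210335 on the plus strand.
BC100530: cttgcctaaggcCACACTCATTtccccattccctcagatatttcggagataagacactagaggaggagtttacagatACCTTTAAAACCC
Stfa3: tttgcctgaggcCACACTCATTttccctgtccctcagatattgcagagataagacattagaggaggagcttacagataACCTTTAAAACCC
Stfa2: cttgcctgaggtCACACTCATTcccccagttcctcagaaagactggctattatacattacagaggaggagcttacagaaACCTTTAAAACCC
Gm5416: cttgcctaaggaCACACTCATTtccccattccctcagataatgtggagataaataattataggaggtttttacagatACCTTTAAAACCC
Only runs of at least 8 bases that stood in every member promoter were kept, so their presence in all 7 was set by the search. The run ACCTTTAAAACCC stood in all 7 promoters and, of 32851 promoters searched on both strands, in 9 (0.027%). Thus 2 promoters other than those of these 7 members held it, and their places were not looked up. It began 32 to 36 bases before the annotated start in Stfa1, Stfa2, Stfa2l1, Stfa3 and Gm5483, 12 bases before it in BC100530 and 80 bases before it in Gm5416. The run CACACTCATT stood in all 7 and in 37 promoters in total (0.113%), among them that of Csta, the stefin A gene next to the cluster. Another run, GATCATTTCTTCT, lay at or near the start in most members, stood in all 7 promoters and was found in 10 promoters in total (0.030%). The run ACTCATTT, which overlaps CACACTCATT in BC100530 and Stfa3 among others, was found in 378 promoters (1.15%). The Csta window ended 61 bases after the beginning of CACACTCATT, short of the 77 to 80 bases over which members reach the end of ACCTTTAAAACCC, so the absence of that run from it cannot be read.

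Known motifs were searched on both strands of the same windows. The run TTTAAAA lies within ACCTTTAAAACCC, so its presence in 7 of 7 member promoters was fixed by the choice of that run. It was in 8.74% of all promoters. The AP-1 motif TGANTCA was found in Stfa3 only (7.81% of all promoters), and the STAT motif TTCNNNGAA in Gm5483 only (8.30%). The C/EBP motif TTGCNNAA was in Stfa1, BC100530 and Gm5416 (10.8%). The PU.1 motif GAGGAAG was in Stfa1, BC100530 and Gm5483 (13.6%). The pattern GGGNNTTCC, used for NF-kappaB, was in 0 of 7 (5.82%). It is 9 bases long and sites of another length were not searched, so an absence of NF-kappaB sites cannot be read from it. These letters are matches only, and no binding was measured.

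Library totals were between 18004136 and 21085544 counts, and a level of 3 counts, used as the floor, corresponded to 0.138 to 0.169 CPM (counts scaled to a library of one common size after TMM normalisation). Intervals and floors cover counting error only. One library stood apart from its group. The baseline butyrate mice (replicates 1 and 3) lay over 2-fold apart in 26.0% of 14194 genes with a mean of at least 1 CPM, compared to 1.62% in baseline CTL, 1.17% in lesional CTL and 4.40% in lesional butyrate skin. In replicate 3, the summed level of 11 suprabasal keratinocyte markers was 5046 CPM and that of 14 macrophage and monocyte markers 474 CPM, whereas replicate 1 had 20424 and 1864 CPM. Among the suprabasal markers, Ivl (343 against 150 CPM) and Dsc1 (292 against 240 CPM) were higher in replicate 3, and the rest were lower. The summed level and the calls that rest on baseline butyrate skin are therefore given with both mice and without replicate 3.

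All 8 members passed the filter on low counts, 5 of them (Stfa1, Stfa2, Stfa2l1, Gm5483 and Gm5416) only through the lesional libraries, so that no count or median over the members is read as support. Together they amounted to 28.3 and 27.2 CPM in the 2 baseline CTL mice (replicates 1 and 2). In baseline butyrate skin the sum was 27.9 CPM in replicate 1 and 4.23 CPM in replicate 3. In lesional CTL skin it was 3543 CPM in replicate 4 and 1870.4 CPM in replicate 5, and in lesional butyrate skin it was 1448 CPM in replicate 3 and 969 CPM in replicate 4. All 4 lesional libraries lay far above all 4 baseline libraries, and both lesional butyrate libraries lay below both lesional CTL libraries. The cluster took 0.193% to 0.370% of all counts of a library in lesional CTL skin and 0.099% to 0.150% in lesional butyrate skin.

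The most abundant product was that of BC100530, a stefin A-type inhibitor gene. It had 12.1 and 14.5 CPM in baseline CTL skin and 16.9 and 2.19 CPM in baseline butyrate skin. In lesional skin it reached 2037 and 1135 CPM in CTL mice and 830.4 and 602 CPM in butyrate-treated mice. The lesional groups did not overlap, at 1586 ± 638 CPM (SD, n = 2) for CTL and 716 ± 161 CPM (SD, n = 2) for butyrate.

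Stfa3, stefin A3, was the other main transcript, and every 50-base window of its transcript was its own. It had 12.5 and 9.30 CPM in baseline CTL skin and 7.31 and 0.855 CPM in baseline butyrate skin. In lesional skin it reached 1037 and 444 CPM in CTL mice and 468 and 264 CPM in butyrate-treated mice. Stfa3 was the member whose lesional groups overlapped, since lesional butyrate replicate 3 lay above lesional CTL replicate 5. Their means were 741 ± 419 CPM (SD, n = 2) and 366 ± 144 CPM (SD, n = 2).

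BC117090, the copy nearest to BC100530 in sequence after Stfa1, was next by level. It had 2.88 and 2.93 CPM in baseline CTL skin, 3.21 and 0.475 CPM in baseline butyrate skin, 307 and 186 CPM in lesional CTL skin and 99.6 and 73.0 CPM in lesional butyrate skin. The lesional groups did not overlap.

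The other 5 members were near or under the floor in baseline skin. Gm5416, whose sequence is the least ambiguous beside Stfa3, had 3 counts in each baseline CTL library (0.166 CPM in both) and 1 and 0 counts in baseline butyrate skin. It had 87.3 and 51.1 CPM in lesional CTL skin and 18.4 and 12.1 CPM in lesional butyrate skin, so that every lesional CTL value lay above every lesional butyrate value. Stfa2 (stefin A2) had 0.277 and 0.221 CPM in baseline CTL skin and 0.0562 and 0.618 CPM in baseline butyrate skin, the latter from 1 and 13 counts. It lay above this range in each lesional library, with 51.8 and 28.9 CPM in CTL and 25.1 and 13.4 CPM in butyrate-treated mice. Stfa2 was the one member that was higher in baseline butyrate replicate 3 than in replicate 1.

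Stfa1 (stefin A1) had between 1 and 5 counts in each baseline library. In lesional skin it had 12.7 and 7.78 CPM in CTL mice and 4.76 and 2.41 CPM in butyrate-treated mice. Stfa2l1 had 0 to 2 counts in each baseline library, 6.02 and 9.53 CPM in lesional CTL skin and 0.714 and 1.48 CPM in lesional butyrate skin. Gm5483 had 0 counts in all 4 baseline libraries, 5.16 and 8.01 CPM in lesional CTL skin and 1.19 and 0.650 CPM in lesional butyrate skin. Stfa2l1 and Gm5483 were higher in lesional CTL replicate 5 than in replicate 4, while the other 6 members were higher in replicate 4.

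**Figure D1:**
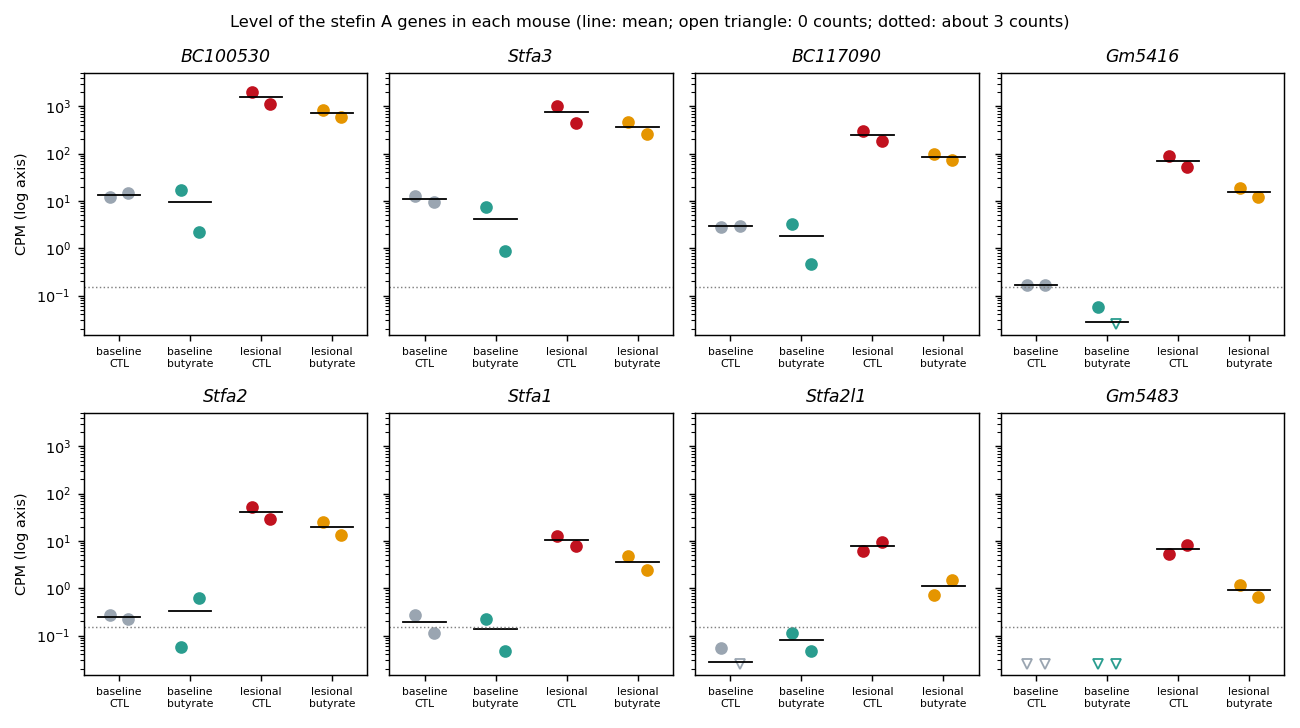
Level of each stefin A gene in each mouse, in CPM on a log axis, by group. Points are single mice, lines are group means, open triangles are libraries with 0 counts and the dotted line is the mean CPM of 3 counts. In each panel the 4 lesional mice lie above the 4 baseline mice, and in each panel except that of Stfa3 both lesional butyrate mice lie below both lesional CTL mice.

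Levels of different members were compared per kilobase of transcript, using the first-numbered protein-coding GENCODE transcript. In lesional CTL skin the order of mean levels was BC100530 (2562 CPM per kb), Stfa3 (1798), BC117090 (637), Gm5416 (235), Stfa2 (85.6), Stfa1 (19.9), Stfa2l1 (18.5) and Gm5483 (15.9). BC100530 and Stfa3 overlapped in this order, as did Stfa1, Stfa2l1 and Gm5483 with their neighbours, and the steps from Stfa3 to BC117090, Gm5416, Stfa2 and Stfa1 did not overlap. In lesional butyrate skin the order was the same, and there Gm5416 (51.8 CPM per kb) and Stfa2 (40.9 CPM per kb) overlapped. Dividing by all annotated exon bases instead placed Stfa2l1 above Stfa1 in lesional CTL skin and lowered Gm5483 to 3.54 CPM per kb. The annotated Gm5416 transcript is 294 bases long with a coding part of 291 bases, so its level per kilobase may be high for want of annotated ends. In baseline CTL skin the 2 leading genes were Stfa3 (26.4 CPM per kb) and BC100530 (21.5 CPM per kb), which overlapped.

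The division of counts within the cluster was compared between libraries as a share of its own counts. BC100530 took between 42.9% and 62.2% of them in the 8 libraries, Stfa3 between 20.2% and 44.1%, and BC117090 between 6.88% and 11.5%. The share of Gm5416 was 2.46% and 2.73% in lesional CTL skin and 1.27% and 1.25% in lesional butyrate skin, and it did not pass 0.610% in any baseline library. BC117090 likewise took 8.66% and 9.95% in lesional CTL skin and 6.88% and 7.54% in lesional butyrate skin. In baseline butyrate replicate 3 the cluster held 89 counts in all, of which Stfa2 took 14.6% (95% exact Clopper-Pearson interval 8.01% to 23.7%), against 0.202% to 1.74% in the other 7 libraries. The shares of Gm5416 and BC117090 did not overlap between the lesional groups, and those of BC100530 and Stfa3 did.

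**Figure D2:**
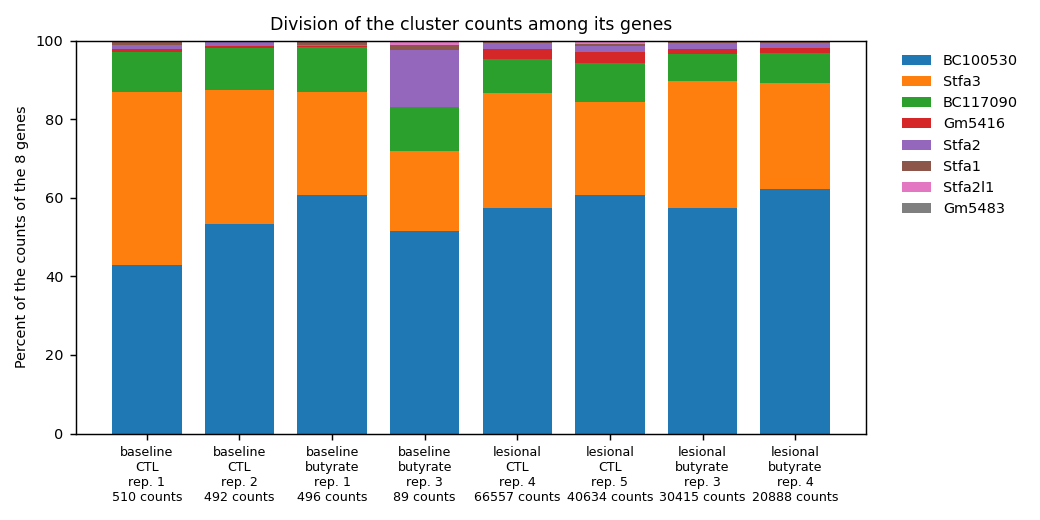
Share of the counts of the 8 genes taken by each gene, in percent, with 1 bar per mouse and the number of counts under it. BC100530, Stfa3 and BC117090 make up most of every bar, and Stfa2 takes 14.6% in baseline butyrate replicate 3, which rests on 89 counts.

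The main comparison set lesional butyrate against lesional CTL skin, which compares levels after HDM. Whether butyrate changed the response to HDM is a matter of the interaction given further below. The summed stefin A level was 2.24-fold lower in lesional butyrate than in lesional CTL skin, at -1.16 (standard error 0.80) on the log2 scale, and it was between -1.55 and -0.63 with any 1 library left out. The latter value was that without lesional CTL replicate 4, when Stfa3 was at -0.28 and BC100530 at -0.66. The smallest differences among the members were those of Stfa3 (log2 fold change -1.02, standard error 0.85), Stfa2 (-1.06, 0.59) and BC100530 (-1.15, 0.81). Stfa1 and BC117090 were both at -1.51 (0.55 and 0.63). The largest were those of Gm5416 (-2.18, 0.37), Stfa2l1 (-2.81, 0.55) and Gm5483 (-2.83, 0.50), which are 4.54-fold, 7.03-fold and 7.13-fold lower levels. The largest differences were thus outside the 3 most abundant genes, while the 2 that carry most of the counts, BC100530 and Stfa3, differed by little more than these standard errors. The spread behind them is shared with the baseline mice, and a fit of the lesional libraries alone gave standard errors of 0.35 for BC100530 and 0.49 for Stfa3 around log2 fold changes of -1.15 and -1.02.

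The lesional groups did not overlap in 7 of the 8 members, each lower with butyrate, where 22.5% of all 15163 tested genes had both lesional butyrate libraries below both lesional CTL libraries. By edgeR's quasi-likelihood test at an FDR below 0.1 and a fold change above 2, 0 members and 0 genes of 15163 (0%) were called in this comparison, and 734 genes had an unadjusted p below 0.05. limma-voom called 0 members and 1 gene (0.0066%), and DESeq2 called 3 members (Stfa2l1, Gm5483 and Gm5416) among 124 genes (0.818%). The call depended on the baseline butyrate mice, which enter through the shared estimate of spread. Without replicate 3 edgeR called 187 genes (1.22%) with 4 members among them, without replicate 1 it called 191 (1.22%) with 4 members, and in both cases these were Stfa2l1, BC117090, Gm5483 and Gm5416. In bulk skin, fewer cells of a type and less RNA per cell cannot be told apart.

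Butyrate without HDM was compared in baseline skin. The log2 fold change of the summed level was -0.79 (standard error 0.80) with both butyrate mice, 0.01 without replicate 3 and -2.72 without replicate 1. Stfa3 was at -1.43 (0.91), and -0.57 without replicate 3. BC100530 was at -0.49 (0.83), BC117090 at -0.69 (0.74), Stfa1 at -0.55 (0.96) and Stfa2 at 0.49 (1.02), and the sign of each of these 4 turned without replicate 3. No fold is given for Stfa2l1, Gm5483 and Gm5416, which were at or under 3 counts in every baseline library. Both butyrate values lay below both CTL values in Stfa3 and Gm5416, against 15.9% of all tested genes. edgeR called 0 members and 0 genes (0%), with 529 genes at an unadjusted p below 0.05, limma-voom called 0 genes and DESeq2 called 58 genes (0.383%) with 0 members. Without replicate 1, which leaves replicate 3 alone in its group, edgeR called 3777 genes (24.1%), Stfa3, BC100530 and BC117090 among them, and without replicate 3 it called 0.

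The change with HDM was compared within each treatment. In CTL mice, the summed level was 97.5-fold higher in lesional than in baseline skin (log2 fold change 6.61, with a standard error of 1.01). BC100530 was 119-fold higher (6.89, 1.04), BC117090 84.5-fold (6.40, 0.80), Stfa3 68.0-fold (6.09, 1.05), Stfa2 158-fold (7.30, 0.85) and Stfa1 51.2-fold (5.68, 0.73). Gm5416 rested on 6 counts in baseline CTL skin, and the ratio of its means was 416 (95% counting interval 187 to 1114). Stfa2l1 rested on 1 count there, with a ratio of 280.4 (50.8 to 11300), and Gm5483, at 0 in baseline skin, was at least 39.6-fold higher, taking 3 counts per library as the floor.

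In butyrate-treated mice, the summed level was 75.4-fold higher in lesional than in baseline skin (log2 fold change 6.24, standard error 0.99), with a log2 fold change of 5.44 without baseline butyrate replicate 3 and 8.16 without replicate 1. Stfa3 was at 6.50 (1.08), BC100530 at 6.23 (1.01), Stfa2 at 5.75 (0.79), BC117090 at 5.58 (0.78) and Stfa1 at 4.71 (0.75). Stfa2l1 rested on 3 counts in baseline butyrate skin (ratio 13.7, interval 4.60 to 71.8), and Gm5416 on 1 count (ratio 542, interval 106 to 23353). Gm5483 was at least 5.91-fold higher. These values share their lesional butyrate and baseline butyrate libraries with the comparisons of butyrate above, so the sets are not independent of each other.

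All 8 members were higher in both lesional libraries than in both baseline libraries of the same treatment, where 36.7% of tested genes in CTL mice and 15.7% in butyrate-treated mice did the same. The choice of the members and the filter favour this direction, and nothing is read from the counts that follow. By edgeR, 8 of 8 members were called higher in CTL mice, where 2.37% of tested genes were called higher and 3.58% in either direction. limma-voom and DESeq2 also called 8, of 3.81% and 7.21% of genes. In butyrate-treated mice 3 of 8 were called higher (Stfa2, BC117090 and Gm5416), where 0.277% of tested genes were called higher and 0.35% in either direction. limma-voom called 5 there (0.277% of genes) and DESeq2 8 (4.6%), and edgeR called 7 without baseline butyrate replicate 3 (5.94%), 8 without replicate 1 (19.1%), 1 without lesional CTL replicate 5 (0.032%) and 0 without any one of the other 5 libraries (0 to 6 genes, of which the shares were 0%, 0.0128%, 0.0319%, 0.0383% and 0.0384%). In CTL mice the count fell to 0 members of 0 called genes without either baseline CTL library, and it was 8 members without baseline butyrate replicate 1 (1936 genes, 12.3%) or replicate 3 (1911 genes, 12.5%). Without lesional CTL replicate 4 or 5, edgeR called 1 member (Gm5416) among 16 (0.102%) and 23 genes (0.147%), and without lesional butyrate replicate 3 or 4 it called 4 members (Stfa1, Stfa2, Stfa2l1 and Gm5416) among 109 (0.697%) and 117 genes (0.748%).

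**Figure D3:**
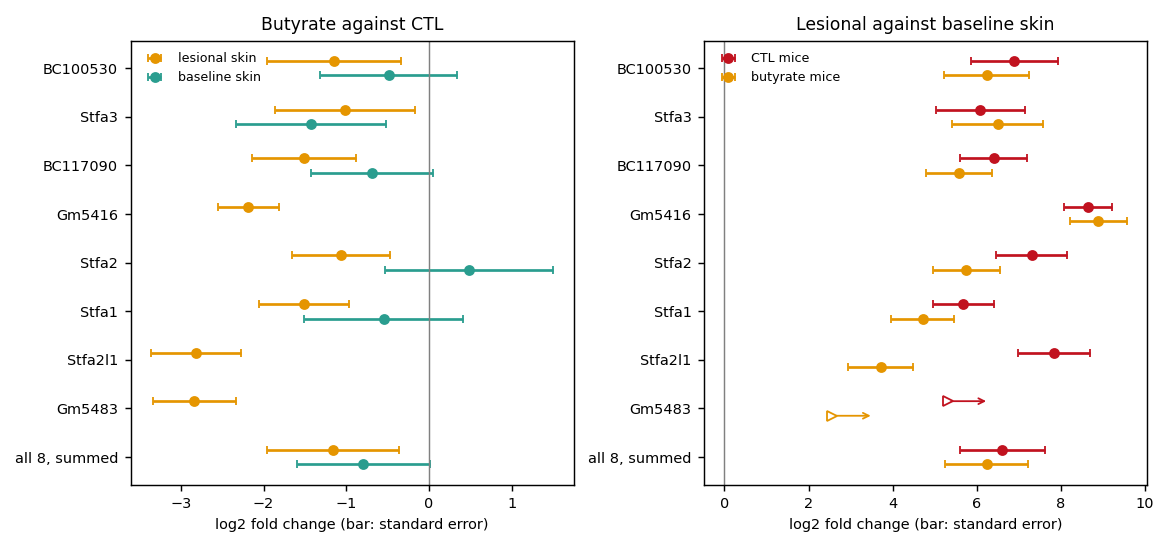
Log2 fold change of each stefin A gene and of their sum, with bars of 1 standard error, for butyrate against CTL (left) and lesional against baseline skin (right). Open arrows mark lower bounds for Gm5483, which had 0 counts in baseline skin, and genes at or under 3 counts in both groups have no point. Lesional differences with butyrate run from -2.83 for Gm5483 to -1.02 for Stfa3.

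The difference of the butyrate effect between lesional and baseline skin was fitted as an interaction. For the summed level it was -0.37 (standard error 1.12, log2 scale), and it was -1.17 without baseline butyrate replicate 3, 1.55 without baseline butyrate replicate 1 and 0.16 without lesional CTL replicate 4, so that neither its size nor its sign was stable. With all libraries it was, for Stfa3, 0.41 (1.22), for BC100530 -0.66 (1.16), for BC117090 -0.82 (0.97), for Stfa1 -0.96 (1.18) and for Stfa2 -1.55 (1.18). Each of these but that of Stfa2 was smaller than its standard error. The fit gave -4.12 (1.48) for Stfa2l1 and 0.24 (0.71) for Gm5416. These genes and Gm5483 were at or under 3 counts in every baseline library, so nothing is read from their fits. Over the whole table edgeR called 0 genes for it (0%), with 703 at an unadjusted p below 0.05, limma-voom called 0 and DESeq2 37 (0.244%), with 0 members among them. Without baseline butyrate replicate 1 edgeR called 3275 genes (20.9%), Stfa3 among them, and without replicate 3 it called 0.

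Genes of the cystatin family other than the 8 members, and the proteases that cystatins block, were examined next. Their p-values and calls are those of the test across all genes. These lists, and the marker lists further below, were also chosen with earlier results of these data known. Counts of calls within them are therefore a description. Of 22 such cystatin family genes listed, 8 were tested and 8 had 0 counts in all libraries. Apart from that of Csta, their positions were not compared with the cluster. The list also held the related protease inhibitors Ctla2a and Ctla2b, and Cstad, which is not a cystatin, and these 3 were called by none of the tools in any comparison. Csta, the stefin A gene next to the cluster, was the one called by edgeR and by limma-voom, higher in lesional than in baseline skin of CTL mice. DESeq2 called Csta, Cstb and Cst7 in that comparison, and Csta and Cst7 in butyrate-treated mice. Csta had 73.4 and 67.6 CPM in baseline CTL skin, 65.4 and 59.9 CPM in baseline butyrate skin, 287 and 215 CPM in lesional CTL skin and 211 and 127 CPM in lesional butyrate skin. Its log2 fold change with HDM in CTL mice was 1.83 (standard error 0.27, edgeR adjusted p = 0.0403). That is a rise of 3.55-fold, where the summed cluster was 97.5-fold higher. The call of Csta was lost without any 1 of the baseline CTL or lesional CTL libraries (adjusted p from 0.185 to 0.384). In butyrate-treated mice it was at 1.43 (0.27, adjusted p = 0.163), and lesional butyrate against lesional CTL skin it was at -0.57 (0.27, adjusted p = 1.00).

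Genes of this list other than Csta were not called by edgeR or limma-voom in any comparison. Cst6 (cystatin E/M, a secreted inhibitor of legumain and cathepsins in the upper epidermis) had the highest mean level, with 640 and 526 CPM in baseline CTL, 495 and 1399 CPM in baseline butyrate, 1004 and 1217 CPM in lesional CTL and 2062 and 1499 CPM in lesional butyrate skin. In lesional skin Cst6 was thus higher in both butyrate libraries than in both CTL libraries, the opposite order to that of the cluster, with a log2 fold change of 0.68 (0.48, edgeR adjusted p = 1.00). Cst3 (cystatin C, secreted by most cells) lay between 323 and 548 CPM in all 8 libraries. Cstb (stefin B, the intracellular stefin of most cells) had 95.9 and 96.4 CPM in baseline CTL, 94.4 and 283 CPM in baseline butyrate, 267 and 225 CPM in lesional CTL and 289.6 and 201 CPM in lesional butyrate skin. Its log2 fold change between the lesional groups was -0.01 (0.48, adjusted p = 1.00). Ctla2a, a cathepsin L inhibitor that resembles a protease propeptide, had 45.7 and 36.5 CPM in lesional CTL mice, and 27.9 and 22.6 CPM in lesional butyrate mice (log2 fold change -0.70, 0.51, adjusted p = 1.00). Between the lesional groups, 0 of the 8 tested cystatin family genes were called by edgeR, 2 had an unadjusted p below 0.05, and limma-voom and DESeq2 called 0. In baseline skin the numbers were 0, 0, 0 and 0, and between lesional and baseline skin of butyrate-treated mice they were 0, 3, 0 and 2.

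Cysteine cathepsins and legumain, the lysosomal enzymes that cystatins inhibit, were all tested (11 of 11) and 0 were called by edgeR in any comparison. Ctsb (cathepsin B) had the highest mean level, with 766 and 861 CPM in baseline CTL, 1099 and 1350.1 CPM in baseline butyrate, 1194 and 1238 CPM in lesional CTL and 903 and 1200 CPM in lesional butyrate skin. Ctsl (cathepsin L) had 298 and 334 CPM in baseline CTL, 368 and 444 CPM in baseline butyrate, 486 and 532 CPM in lesional CTL and 596 and 491 CPM in lesional butyrate skin. Lgmn (legumain) had 140.1 and 201 CPM in baseline CTL, 232 and 91.3 CPM in baseline butyrate, 285 and 321 CPM in lesional CTL and 111 and 219.8 CPM in lesional butyrate skin. For Ctsc (cathepsin C, which activates serine proteases of neutrophils and mast cells) the values were 107 and 141 CPM in baseline CTL, 179.0 and 379.6 CPM in baseline butyrate, 377 and 263 CPM in lesional CTL and 213 and 226 CPM in lesional butyrate skin. Ctsh (cathepsin H) was at 105 and 109 CPM in baseline CTL, 134 and 112 CPM in baseline butyrate, 181 and 166 CPM in lesional CTL and 176 and 144 CPM in lesional butyrate skin, with a log2 fold change of 0.69 (0.16, edgeR adjusted p = 0.0937), which is under the 2-fold limit.

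With HDM in CTL mice, log2 fold changes of the 11 proteases lay between -0.35 and 1.37, and 5 had an unadjusted p below 0.05 (1 called by limma-voom, 2 by DESeq2). Between the lesional groups they lay between -0.87 and 0.33, and 0 had an unadjusted p below 0.05 (0 by limma-voom and DESeq2). In baseline skin 2 had an unadjusted p below 0.05 (0 by either other tool), and between lesional and baseline skin of butyrate-treated mice 2 did (0 by limma-voom, 1 by DESeq2). For the interaction 2 did (0 by either other tool). Of all 15163 tested genes, 2983 had an unadjusted p below 0.05 with HDM in CTL mice and 1993 in butyrate-treated mice. The numbers were 734 between the lesional groups, 529 in baseline skin and 703 for the interaction.

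**Figure D4:**
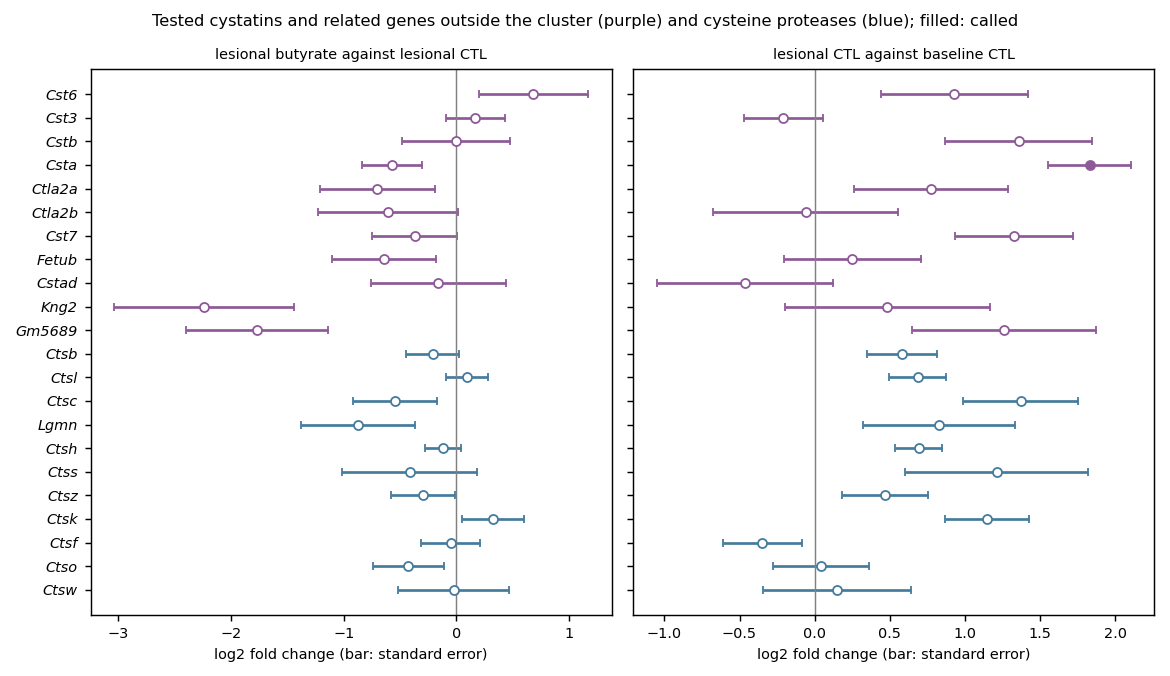
Log2 fold change with 1 standard error of the tested cystatins and related genes other than the members (purple) and 11 cysteine proteases (blue), between the lesional groups (left) and between lesional and baseline CTL skin (right). Filled points were called by edgeR, which was the case for Csta in the right panel, at 1.83.

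The chromosomal neighbours showed how far the pattern reached beyond the cluster. On the side of Stfa2l1 lay Gm10092 (19080 bases away), Csta (25570 bases), Ccdc58, Fam162a and Wdr5b (112883 bases). Gm10092 had 0 counts in all 8 libraries. On the side of Stfa3 lay Casr (38304 bases away), the calcium-sensing receptor, then Cd86, a costimulatory ligand of antigen-presenting cells, Ildr1, Slc15a2 and Eaf2 (337492 bases). Of the 9 neighbours other than Csta, 8 were tested and edgeR called 0 in any comparison. With HDM in CTL mice, their log2 fold changes lay between -0.97 and 0.92, and 1 had an unadjusted p below 0.05 (0 called by limma-voom and DESeq2). Between the lesional groups they lay between -0.53 and 0.55, with 0 at an unadjusted p below 0.05 and 0 called by either other tool. In baseline skin 1 had an unadjusted p below 0.05 (0 by limma-voom, 1 by DESeq2), between lesional and baseline skin of butyrate-treated mice 3 did (0 and 2), and for the interaction 0 did (0 and 0).

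Genes other than the members whose profile over the 8 libraries was most like that of the members were ranked by the root-mean-square difference of log2(CPM + 0.5), each profile centred on its own mean, among 14186 genes. The 10 nearest were Lce3e (0.26), Sprr2g (0.29), Lce3f (0.31), Sprr2i (0.39), Krt16 (0.45), Lce3d (0.47), Sprr2b (0.47), Gm5478 (0.47), Defb3 (0.51) and Lce3b (0.52). Lce3 and Sprr2 genes code for late cornified envelope and small proline-rich proteins, Krt16 for a keratin of wounded and hyperproliferative epidermis and Defb3 for an antimicrobial beta-defensin. Single members lay 0.55 (Gm5416) to 1.20 (Stfa2l1) from the mean profile of the members. The 10 genes were picked as the nearest of all those ranked, so nothing is read from their smaller distances. Sprr2i, Krt16 and Defb3 also stand in the list of injury-induced keratinocyte markers below. Lce3e had a mean of 0.443 CPM in baseline CTL, 0.240 CPM in baseline butyrate, 27.5 CPM in lesional skin of CTL mice and 10.8 CPM in that of butyrate-treated mice. Krt16 had 43.6, 55.3, 1421 and 796 CPM in the same order.

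Of 5 lists of cell type markers, those of neutrophils and of injury-induced keratinocytes had sums that moved with the cluster. The summed level of 20 neutrophil markers was 103 and 105 CPM in baseline CTL, 94.4 and 51.4 CPM in baseline butyrate, 3070.4 and 2009 CPM in lesional CTL and 919 and 459 CPM in lesional butyrate skin. Of these, 15 were tested and 10 rose with HDM in CTL mice by edgeR (10 by limma-voom and DESeq2), and 3 in butyrate-treated mice. Of all tested genes, edgeR called 2.37% higher in CTL mice and 0.277% higher in butyrate-treated mice. The other tested markers were not called with HDM in CTL mice. Cd177 and Fpr2 had log2 fold changes of 2.78 and 1.97 there, while Mpo (-1.41), Il1r2 (-0.47) and Prtn3 (-0.10) were negative. S100a8 and S100a9, calgranulins made by neutrophils and by inflamed keratinocytes, gave most of that sum, with 997 and 577 CPM and 1462 and 834 CPM in lesional CTL skin. Csf3r, the G-CSF receptor, had 117 and 137 CPM in lesional CTL and 24.2 and 46.7 CPM in lesional butyrate skin. Ly6g, Ngp, Camp, Ltf and Elane, which mark neutrophils or their granules, were below 1 CPM in every library, and Ly6g had 8 counts in all. Between the lesional groups edgeR called 0 of 15, with 11 at an unadjusted p below 0.05, limma-voom 0 and DESeq2 8. Of all 15163 tested genes, 734 had an unadjusted p below 0.05 there by edgeR, and DESeq2 called 0.818%.

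Injury-induced keratinocyte markers (12 genes, among them Krt6a, Krt6b and Sprr genes) summed to 1196 and 1049 CPM in baseline CTL, 1070 and 3388 CPM in baseline butyrate, 9662 and 6462 CPM in lesional CTL and 5519 and 3900.3 CPM in lesional butyrate skin. By edgeR, 10 of 11 tested rose with HDM in CTL mice, against 2.37% of all tested genes. In butyrate-treated mice 5 of 11 rose, against 0.277%. Between the lesional groups 0 were called, with 8 at an unadjusted p below 0.05, 0 by limma-voom and 2 by DESeq2. The shares over all tested genes there are those given with the neutrophil markers. The neutrophil sum, the injury-induced keratinocyte sum and the stefin A sum had the same order over the 4 lesional libraries, highest in CTL replicate 4, then CTL replicate 5, butyrate replicate 3 and butyrate replicate 4. Among tested neutrophil markers, S100a8, S100a9, Mmp9 and Lcn2 had this order. Mpo and Prtn3 were only slightly higher in lesional CTL replicate 4 than in replicate 5. Csf3r, Cxcr2 (64.3 against 56.7 CPM), Mmp8 (17.6 against 5.96 CPM), Retnlg, Fpr1, Fpr2, Il1r2, Cd177 and Clec4d were higher in lesional CTL replicate 5, as were Stfa2l1 and Gm5483. In baseline butyrate replicate 3, the injury-induced sum was the highest of the 4 baseline libraries while the stefin A sum was the lowest.

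The other keratinocyte and myeloid lists had a different order. Suprabasal markers summed to 21697 and 20132 CPM in baseline CTL, 6586 and 8234 CPM in lesional CTL and 20606 and 15422 CPM in lesional butyrate skin. With HDM in CTL mice 1 of 11 fell by edgeR (5 at an unadjusted p below 0.05, 1 by limma-voom and 5 by DESeq2). Of all tested genes, 3.58% were called there by edgeR in either direction. Between the lesional groups 11 of 11 had positive log2 fold changes (0.46 to 2.53). There 0 were called by edgeR, limma-voom or DESeq2, and 4 had an unadjusted p below 0.05 by edgeR. Macrophage and monocyte markers summed to 1792 and 2104 CPM in lesional CTL and 959 and 1760 CPM in lesional butyrate skin, with 0 of 14 called by edgeR in any comparison (at most 2 at an unadjusted p below 0.05, 0 by limma-voom and at most 1 by DESeq2). Basal markers lay between 12333 and 14007 CPM in the 4 lesional libraries, with 0 of 8 called by edgeR in any comparison (at most 3 at an unadjusted p below 0.05, 1 by limma-voom and 2 by DESeq2). The part of any of these cell types in the stefin A values was not tested.

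**Figure D5:**
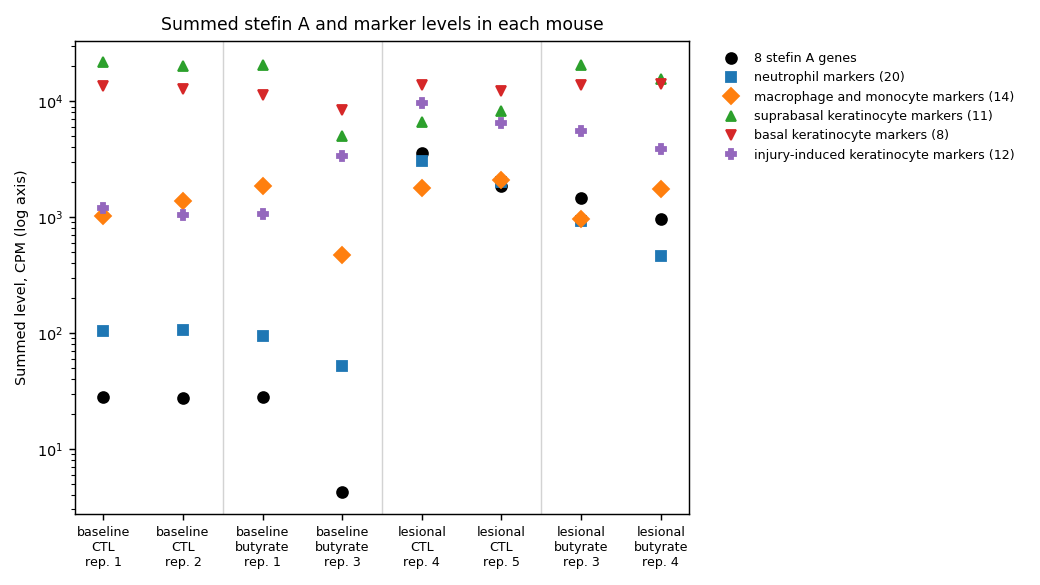
Summed level of the 8 stefin A genes and of 5 lists of cell type markers in each mouse, in CPM on a log axis, with the number of genes per list in the key. In lesional skin the stefin A sum (black) falls from 3543 to 969 CPM in the same order of mice as the neutrophil and injury-induced keratinocyte sums. Most of the neutrophil sum in these mice came from S100a8 and S100a9.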

How the data were processed

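Per the labels, whole skin was snap-frozen, total RNA was extracted with TRIzol and purified on columns, and Illumina TruSeq libraries were made. Per the submitters' processing notes and the methods, the authors used STAR 2.5.2 and GRCm38 for alignment and featureCounts for counting, and deposited raw, unnormalized counts of protein-coding genes on the reverse strand. Counts were used as deposited.

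Groups came from the labels (vehicle as CTL, SCFA as butyrate, atopic dermatitis as lesional). The stefin A members and the lists were chosen with earlier results of these data known, and members therefore have no p-value, and calls among them are counted only beside the share over all genes. CPM used TMM-scaled library sizes. Library totals were 18004136 to 21085544 counts, and precision near 3 counts is limited by counting error. edgeR's quasi-likelihood test (edgeR 4.0.16, R 4.3.3, robust) was fitted to all 8 libraries with a mean per group and 4 residual degrees of freedom, after filterByExpr with a minimum count of 10, which kept 15163 of 22740 genes. A gene was called where its FDR (Benjamini-Hochberg) was under 0.1 and its fold change over 2, as in the study. Fitted log2 fold changes used a prior count of 0.125. The p-values rest on the spread between the 2 mice of each group, pooled over the 4 groups and moderated across genes, and not on that of the compared groups alone. limma-voom (limma 3.58.1), DESeq2 (1.42.0), other scaling, filters and prior counts, fits of only the groups compared and fits without each library were alternatives, of which those of Csta, Ctsc and Kng2, of the interaction of the summed level, and the cystatin list without Cstad, Ctla2a and Ctla2b were added after seeing the data. Scripts were tested on simulated data.

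Named genes were all members, cystatins and proteases called in any comparison or among the 5 highest of their list, 5 neighbours on each side, and the 10 genes of most like profile with a mean of at least 1 CPM. Single marker genes, and Kng2, were named after their values were seen. Positions and coding sequences came from GENCODE vM21, which is on GRCm38, and promoters from RefSeq. Sequences were aligned with Biopython 1.88.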

Additional observations from a re-analysis of the deposited data

Results flagged for a closer look

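Kng2 and Ctsc had effects in opposite directions in the groups compared. Kng2, a kininogen of the cystatin superfamily at low level, was higher in both lesional than in both baseline libraries of CTL mice (0.426 and 0.506 CPM against 0.388 and 0.277 CPM) and lower in both of butyrate-treated mice (0.143 and 0.0464 CPM against 0.281 and 0.855 CPM). The fitted difference was -3.02 (standard error 1.05, log2 scale, edgeR adjusted p = 0.840), which did not pass the threshold. Ctsc was lower with butyrate in both lesional libraries (213 and 226 CPM against 377 and 263 CPM) and higher with butyrate in both baseline libraries (179.0 and 379.6 CPM against 107 and 141 CPM). Its fitted difference was -1.72 (0.53, edgeR adjusted p = 0.840), which did not pass the threshold either. The values of Kng2 are near the floor of 0.138 to 0.169 CPM, and those of Ctsc rest in part on baseline butyrate replicate 3.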

How the results depend on the processing

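No paired analysis was made, since each library came from a different mouse and the labels name no pairs. Under limma-voom the number of genes called between the lesional groups was 1. Under DESeq2 it was 124 between the lesional groups, 58 between the baseline groups, 1093 and 698 for lesional against baseline skin of CTL and of butyrate-treated mice, and 37 for the interaction. With only the groups compared in the fit it was 25 between the lesional groups, 1918 in CTL mice and 0 in butyrate-treated mice (681 at an unadjusted p below 0.05). Leaving out 1 library in turn, which leaves a lone sample assumed to vary like the other groups, it was 0 to 191, 0 to 3777, 0 to 1936, 0 to 2990 and 0 to 3275 in the same order of comparisons, with the highest values all without baseline butyrate replicate 1. The summed stefin A log2 fold change then lay between -2.72 and 0.01 (0.0069 without baseline butyrate replicate 3) in baseline skin and between 5.44 and 8.16 for lesional against baseline skin of butyrate-treated mice, and its interaction between -1.17 and 1.55 (0.16 without lesional CTL replicate 4, and 0.29 with limma-voom).

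The sign turned in baseline skin for Stfa2 (-0.19 with limma-voom, and -2.03 to 1.28 with 1 library left out), Stfa1 (-1.90 to 0.23), BC100530 (-2.61 to 0.35) and BC117090 (-2.60 to 0.14), and for Ctsc between lesional and baseline skin of butyrate-treated mice (-0.78 to 0.30). Of 404 values of members under the alternatives, 28 moved by over 1 standard error and 6 turned. The cause was not tested. Depth limits Stfa1, Stfa2, Stfa2l1, Gm5483 and Gm5416 in baseline skin, where they had 0 to 13 counts per library.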
